A study of Mus musculus with 6 samples.

Results

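Sites opened de novo by IL-4 were the ATAC-seq sites on chromosomes 1 to 19 that were nearly closed in both libraries without IL-4 and open in both libraries with IL-4 alone or with vehicle. The rule asked for a signal of at most 0.5 in Untreated and in DMSO, and of at least 2 in IL-4 and in DMSO + IL-4. It found 293 of 534067 sites on these chromosomes (0.0549%), out of 578591 sites in all. Signal is the number of reads in a site scaled to library size by the authors, as CPM with TMM factors. Because these 4 libraries chose the sites, their values at the sites are a description, and only LatA + IL-4 and MCSF + IL-4 are libraries that the rule did not use.

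ATAC-seq uses a transposase that cuts and tags DNA where chromatin is open. It was performed on bone marrow-derived macrophages (BMDMs) of wild-type C57BL/6J mice, grown in medium conditioned by L929 cells, a source of MCSF, so that every group had seen MCSF during differentiation. There were 6 groups of 1 library each, and the labels do not say how many animals stand behind a library. Untreated cells and cells given the vehicle DMSO served as controls, and the same conditions with IL-4 at 20 ng/ml for 24 hours gave IL-4 and DMSO + IL-4. LatA + IL-4 received latrunculin A at 1 μM, and MCSF + IL-4 received MCSF (CSF1) at 100 ng/ml, each with the same IL-4 treatment. The labels do not say whether LatA + IL-4 contained DMSO, and DMSO + IL-4 was taken as its vehicle control. Below, the LatA library and the MCSF library stand for LatA + IL-4 and MCSF + IL-4. No library here had latrunculin A or MCSF without IL-4. There were no replicates, so no difference has a replicate error and every ratio compares 2 libraries. Reads in sites ranged from 12387332 to 19889902 per library, so a signal of 0.5 stood for 6.24 to 10.4 reads and a signal of 2 for 24.9 to 41.7 reads. Intervals are exact 95% intervals and cover counting error only.

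IL-4 acts through its receptor and the transcription factor STAT6, and turns macrophages towards the alternatively activated state seen in worm infection, allergy and tissue repair. Sites that are closed in resting macrophages and open after a cytokine are often called latent or de novo enhancers, since many lie away from gene starts and gain enhancer marks. Latrunculin A binds actin monomers and blocks polymerisation of actin filaments, and MCSF is the growth factor on which these macrophages depend. Both act on the macrophage cytoskeleton, and the comparison asks whether sites opened by IL-4 stayed open with either treatment. Positions are given in mm9, the build of the files. Sequence and gene annotation of that build were not used here, so the sites are named by position and the cell type was not checked against marker genes.

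The 293 sites had a median signal of 0.240 in Untreated (range 0 to 0.479) and 0.292 in DMSO (range 0 to 0.467). With IL-4 the median was 2.61 (range 2.03 to 7.76), and with DMSO + IL-4 it was 2.89 (range 2.00 to 9.38). The exchanged limits, open in both controls and at most 0.5 with IL-4, were met by 19 sites (0.00356%). The summed signal was 11.2-fold higher in each IL-4 library than in its control, a size that the limits largely set. In LatA + IL-4 the median was 2.80 (quartiles 1.91 and 3.96, range 0 to 10.2). In MCSF + IL-4 it was 3.57 (quartiles 2.20 and 5.08, range 0 to 11.99). Most sites were therefore open in both libraries that had no part in their choice. The limits cut off the lower values of IL-4 and DMSO + IL-4 but not of these libraries, so the spreads cannot be compared. At 2 sites neither control library had a read, and at 14 others 1 of the control libraries had none.

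**Figure D1:**
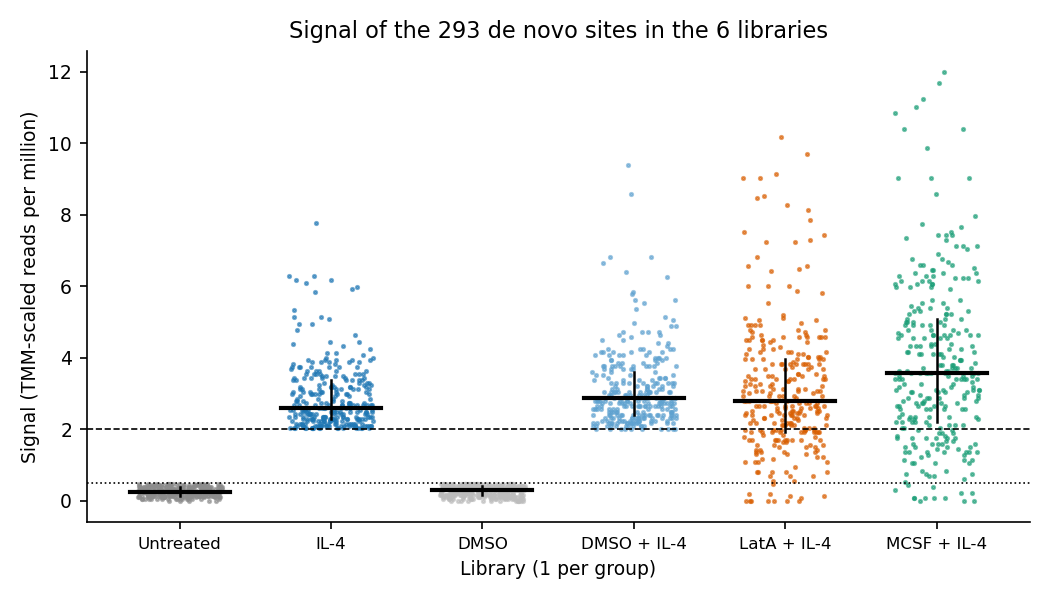
Signal (TMM-scaled CPM, linear axis) of each of the 293 de novo sites in the 6 libraries. Each point is 1 site, thick bars are medians, thin bars span the quartiles, and the dotted and dashed lines mark the limits of 0.5 and 2 that chose the sites in the first 4 libraries. The LatA library reaches from 0 to 10.2 and the MCSF library from 0 to 11.99.

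The strongest sites, ranked by the smaller of the IL-4 and DMSO + IL-4 signals, gave different pictures with latrunculin A and MCSF. At chr14:18576052-18576610 the signal was 0.240 in Untreated, 0.408 in DMSO, 7.76 in IL-4, 9.38 in DMSO + IL-4, 9.15 in the LatA library and 3.72 in the MCSF library. The LatA value was 0.976 of that with vehicle (interval 0.756 to 1.26), and the MCSF value was 2.09-fold lower than with IL-4 alone (1.49 to 2.97). The opposite was seen at chr3:65100908-65101528, where the signal was 0.335 in Untreated, 0.350 in DMSO, 6.29 in IL-4, 6.65 in DMSO + IL-4, 3.35 in the LatA library and 11.99 in the MCSF library. There the LatA + IL-4 signal was 1.99-fold below DMSO + IL-4 (1.38 to 2.89) and the MCSF + IL-4 signal 1.90-fold above IL-4 (1.47 to 2.47).

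At chr16:48842417-48842906 both treatments gave a lower signal. It was 0.144 in Untreated, 0.175 in DMSO, 6.17 in IL-4, 6.41 in DMSO + IL-4, 3.83 in the LatA library and 1.44 in the MCSF library. The value with latrunculin A was 1.68-fold below DMSO + IL-4 (1.18 to 2.40) and that with MCSF 4.28-fold below IL-4 (2.60 to 7.41), yet both libraries stayed above both controls. At chr18:12050843-12051653, where neither control library had a read, the signal was 6.10 in IL-4 (96 reads) and 5.85 in DMSO + IL-4 (73 reads). It was 1.78 in the LatA library, 3.30-fold lower than with vehicle (2.08 to 5.37), and 3.57 in the MCSF library, 1.71-fold lower than with IL-4 (1.195 to 2.48). At chr9:100389029-100389778 the signal was 0.240 in Untreated, 0.0583 in DMSO, 6.29 in IL-4, 6.25 in DMSO + IL-4, 9.02 in the LatA library and 5.24 in the MCSF library. The LatA library had the highest value, 1.44-fold above DMSO + IL-4 (1.08 to 1.93).

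Some sites had their highest signals with the treatments. At chr10:68188147-68188685, also among the 6 strongest, the signal was 0.0479 in Untreated (1 read), 0.350 in DMSO, 5.98 in IL-4, 6.81 in DMSO + IL-4, 8.27 in the LatA library and 11.7 in the MCSF library. The MCSF value was 1.95-fold above IL-4 (1.503 to 2.55), and the LatA value was 1.21 of that with vehicle (0.911 to 1.62), within counting error. At chr2:125094429-125095004 it was 0.144, 0.350, 4.96 and 5.61 in the same 4 libraries, 7.86 in the LatA library and 11.001 in the MCSF library, 1.40-fold above DMSO + IL-4 (1.03 to 1.91) and 2.22-fold above IL-4 (1.67 to 2.96). At chr10:94768991-94769401 the signal was 0.192 in Untreated, 0.408 in DMSO, 3.88 in IL-4, 4.25 in DMSO + IL-4, 8.47 in the LatA library and 7.74 in the MCSF library. This last site was 1.99-fold above DMSO + IL-4 with latrunculin A (1.43 to 2.80) and 2.00-fold above IL-4 with MCSF (1.44 to 2.79).

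At the other end stood sites that were open with IL-4, with or without vehicle, and had no read in either LatA + IL-4 or MCSF + IL-4. At chr1:10749186-10749892 the controls had 4 (Untreated) and 8 (DMSO) reads, IL-4 had 67, DMSO + IL-4 had 38, and both other libraries had 0. By the exact intervals, the signal with latrunculin A was at most 0.0869 of that with vehicle. With MCSF it was at most 0.0675 of that with IL-4. At chr9:73713520-73714192 the reads were 8, 49, 0 and 28 in Untreated, IL-4, DMSO and DMSO + IL-4, with upper limits of 0.120 and 0.0933. At chr4:16435076-16435429 the reads were 1, 33, 3 and 31 in the same order, with upper limits of 0.108 and 0.141. With 3 reads taken as the most that a count of 0 allows, the signal could be up to 0.205 in the LatA library. In the MCSF library it could be up to 0.228, and both values are below the limit of 0.5 set for the controls.

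Over all 293 sites, 210 had a signal of at least 2 in the LatA library (71.7%, interval 66.1 to 76.8). Among the 214743 autosomal sites with mean reads in the same range as the de novo sites (12.4 to 85.3 normalized reads, called sites in range below), 28.7% did. In MCSF + IL-4 228 sites reached 2 (77.8%, interval 72.6 to 82.4), against 27.7% of the sites in that range. Both libraries were at least 2 at 179 sites (61.1%, interval 55.2 to 66.7, against 20.1% in range). A signal of at most 0.5, the limit set for the controls, was found at 13 sites in each library (4.44%, interval 2.38 to 7.47), against 5.94% of sites in range for LatA + IL-4 and 4.96% for MCSF + IL-4, and 8 sites were at most 0.5 in both (2.73%, against 0.842%). The share at most 0.5 in a single library was thus near that of the sites in range. Those sites were not matched to the de novo sites on reads or IL-4 signal within that range. Of the 293 de novo sites, 273 averaged 20 normalized reads or more. Only 123542 autosomal sites did, against 214743 in range, so the sites in range more often had low counts. Against the controls, LatA + IL-4 was past 1.5-fold higher than DMSO at 282 sites (96.2%, against 27.4% in range), and MCSF + IL-4 than Untreated at 285 (97.3%, against 29.3%), where the rule holds the controls low.

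Sites that were open in all 4 libraries of the rule, with IL-4 and DMSO + IL-4 signals in the range of the de novo sites, numbered 33553. Of these, 87.6% had a signal of at least 2 in the LatA library and 89.4% in the MCSF library, and 0.0656% and 0.0685% were at most 0.5. For the de novo sites the same shares were 71.7%, 77.8% and 4.44% for each library. The sets were chosen by different limits in the controls, and the shares were not compared by a test.

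The treated libraries were next read beside an IL-4 library that was likewise left out of the choice. When Untreated, DMSO and IL-4 chose the sites, 768 sites met the 3 limits, and DMSO + IL-4, which then had no part in the choice, reached 2 at 38.2% of them (34.7 to 41.7). LatA + IL-4 reached 2 at 34.9% of the same sites (31.5 to 38.4) and MCSF + IL-4 at 37.9% (34.4 to 41.4). When DMSO + IL-4 took the place of IL-4 in the choice, 1085 sites met the limits. IL-4 then reached 2 at 27.0% (24.4 to 29.8), LatA + IL-4 at 33.5% (30.7 to 36.4) and MCSF + IL-4 at 38.7% (35.8 to 41.7). Each share is of 1 library, the intervals treat sites as separate counts, and 3 libraries of the rule still chose the sites, so these shares do not compare the conditions. Of the sites chosen on these libraries, 40.6% and 33.6% were at most 0.5 in the IL-4 library left out, so a large part of the sites that 1 IL-4 library alone would call opened were not open in the other.

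**Figure D2:**
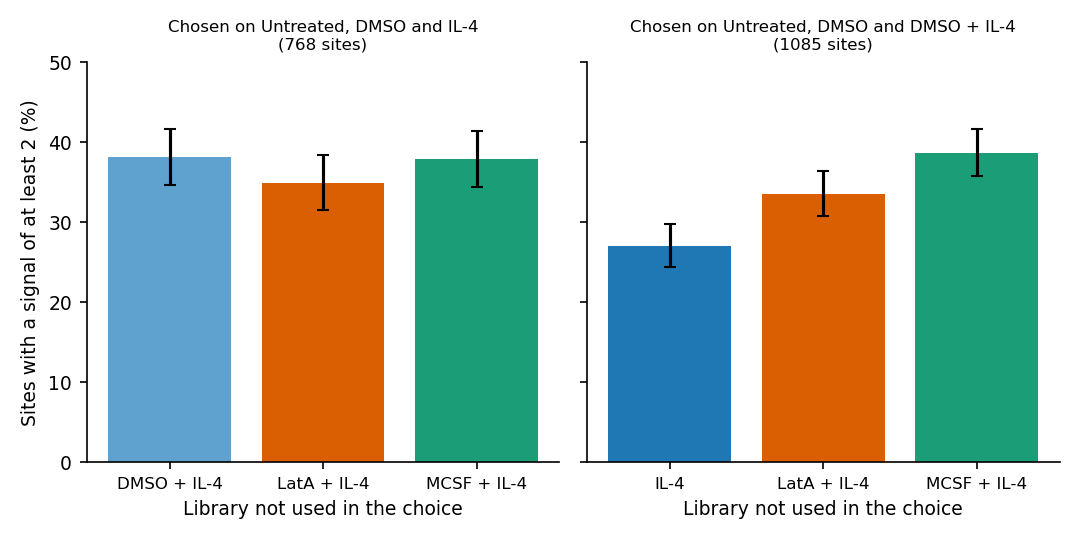
Share of sites (%, bars from 0, error bars exact 95% intervals for counting error) with a signal of at least 2 in the libraries that took no part in the choice, for 768 sites chosen without DMSO + IL-4 (left) and 1085 chosen without IL-4 (right). The left bars stand at 38.2, 34.9 and 37.9% and the right bars at 27.0, 33.5 and 38.7%.

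Each pair was also used to choose sites on its own. Untreated and IL-4 chose 1527 sites (0.286% of autosomal sites), and 293 of these (19.2%, interval 17.2 to 21.3) met the limits in DMSO and DMSO + IL-4 as well. DMSO and DMSO + IL-4 chose 1721 sites (0.322%), of which the same 293 were 17.0% (15.3 to 18.9). The control of the other pair was at most 0.5 at 50.3% of the first set and at 63.0% of the second. Among the 1527 sites, a signal of 2 was reached at 40.9% with DMSO + IL-4, at 41.8% with LatA and at 43.2% with MCSF, and at 6.35% in DMSO without IL-4. Among the 1721 sites the shares were 25.6% with IL-4, 31.0% with LatA and 36.5% with MCSF.

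Each treatment was then compared with its own control. The median log2 ratio of LatA + IL-4 over DMSO + IL-4 was -0.02 (quartiles -0.58 and 0.41), and a ratio past 1.5-fold was seen upward at 50 sites (17.1%, against 25.6% of sites in range) and downward at 73 (24.9%, against 21.5%). The median log2 ratio of MCSF + IL-4 over IL-4 was 0.33 (quartiles -0.34 and 0.84), with 120 sites higher (41.0%, against 24.6% in range) and 53 lower (18.1%, against 20.8%). Summed over the sites, the signal of LatA + IL-4 was 0.994 of that of DMSO + IL-4 and the signal of MCSF + IL-4 was 1.31 of that of IL-4. Both denominators are libraries of the rule, which holds them high. With IL-4 in place of DMSO + IL-4 as the control of LatA + IL-4, the median log2 ratio was 0.10. It was 0.15 with looser limits (1 and 2) and 0.03 at the 273 sites with a mean of 20 normalized reads or more, so its sign rested on the control library, the limits and the filter. With stricter limits (0.25 and 3), which 24 sites met, the median for MCSF was -0.086, so its sign rested on the limits. When libraries were scaled by the reads outside the largest sites, the median for MCSF over the same 293 sites was 0.11 with 27.3% higher and 24.6% lower, and for LatA it was -0.23 with 8.19% higher and 33.4% lower. With the sites chosen again under that scaling there were 315, of which 276 were among the 293, and the medians were 0.11 and -0.23. That scaling also moved the medians of all sites in range to -0.20 and -0.17, from 0.02 and 0.04.

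The ratio of LatA + IL-4 to MCSF + IL-4 used no library of the rule. Its median log2 value was -0.29 (quartiles -0.83 and 0.36), and MCSF + IL-4 had the higher signal at 184 of 293 sites (62.8%, against 48.5% in range). LatA + IL-4 was lower past 1.5-fold at 112 sites (38.2%, against 18.9% of the sites in range) and higher at 53 (18.1%, against 19.8%). Among the open sites with the same IL-4 range, 7.81% were lower and 12.6% higher. The median lay between -0.38 and -0.21 under every scaling, limit and filter tried. Pearson's r between the log2 ratios of LatA + IL-4 over DMSO + IL-4 and of MCSF + IL-4 over IL-4 was 0.61 across the 293 sites, against 0.23 across the sites in range and 0.58 across the open sites with the same IL-4 range. Sites are not independent replicates and were counted in the same libraries, and both denominators were used by the rule. Past 1.5-fold, 29 sites were lower with both treatments (9.90%, against 6.48% in range) and 19 higher with both (6.48%, against 11.1%). Another 19 were lower with LatA and higher with MCSF (6.48%, against 2.71%), and 2 were the reverse (0.683%, against 3.02%).

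**Figure D3:**
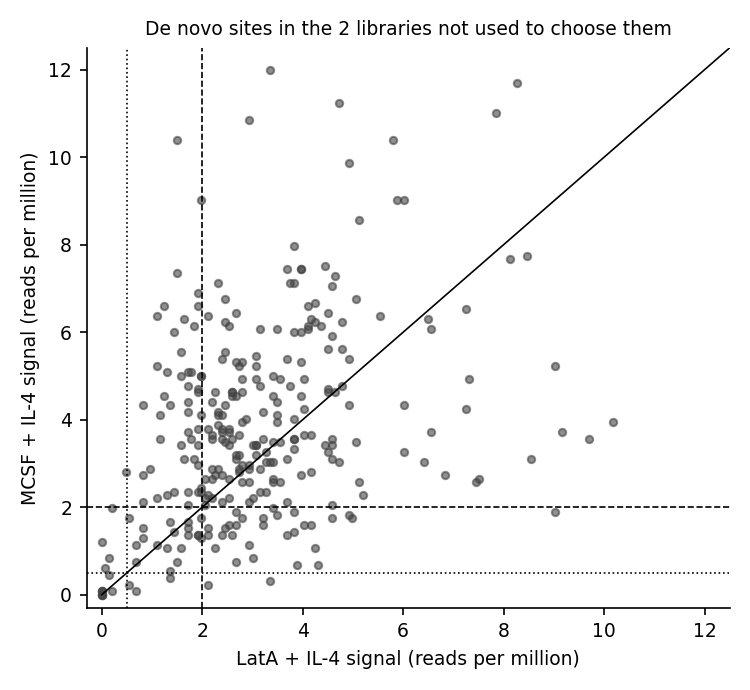
Signal (TMM-scaled CPM, linear axes) of the 293 de novo sites in the LatA library and the MCSF library. Each point is 1 site, the solid line marks equal signal, and dotted and dashed lines mark 0.5 and 2; 184 points lie above the line and 179 have at least 2 in both libraries.

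Sites that told the treatments apart lay on both sides. At chr16:51594261-51594707 the signal was 0.144 in Untreated, 0.117 in DMSO, 2.86 in IL-4, 2.33 in DMSO + IL-4, 3.35 in the LatA library and 0.303 in the MCSF library, a ratio of LatA to MCSF of 11.03 (4.04 to 42.1). At chr3:21366899-21367375 it was 2.12 in the LatA library (31 reads) and 0.228 in the MCSF library (3 reads), a ratio of 9.30 (2.90 to 47.6). At chr6:129371295-129371786 it was 4.30 and 0.683, a ratio of 6.30 (3.12 to 14.4). At these sites the LatA library was above 2 and the MCSF library between 0.228 and 0.683.

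In the other direction, chr14:73323684-73324130 had a signal of 0.144 in Untreated, 0.175 in DMSO, 2.16 in IL-4, 2.65 in DMSO + IL-4, 1.503 in the LatA library and 10.4 in the MCSF library. It was 6.92-fold lower with LatA than with MCSF (4.39 to 11.4), and its MCSF value was 4.81-fold above IL-4 (3.28 to 7.22). At chr5:102435803-102436370 the signal was 0.205 in the LatA library (3 reads) and 1.97 in the MCSF library (26 reads), 9.63-fold lower with LatA (2.95 to 49.7). At chr9:83975553-83976158 LatA + IL-4 had no read and MCSF + IL-4 had 16. By the exact interval, the LatA value there was at most 0.233 of the MCSF value.

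A fit over all 6 libraries was added after the data were seen. It was an edgeR quasi-likelihood fit with terms for IL-4, DMSO, latrunculin A and MCSF, with 1 residual degree of freedom, which comes from the agreement of the effect of IL-4 with and without DMSO and not from replicates. The rule chose the de novo sites for that agreement, and latrunculin A and MCSF have 1 library each, so a larger share of calls at these sites than elsewhere is partly built in and the counts are given with nothing read from them. Of 132057 sites tested, 273 were de novo sites, and 20 de novo sites had a mean under 20 normalized reads. This mean includes the treated libraries, and of those 20 sites 18 were past 1.5-fold lower with LatA than DMSO + IL-4 and 16 with MCSF than IL-4, so the counts of lower sites leave out sites that fell below the limit partly because they were low there. At a Benjamini-Hochberg adjusted p under 0.05, LatA + IL-4 was lower than MCSF + IL-4 at 14 de novo sites (5.13%, against 0.638% of all sites tested) and higher at 5 (1.83%, against 0.727%). The MCSF term was higher at 27 de novo sites (9.89%, against 8.45%) and lower at 8 (2.93%, against 1.0%). The latrunculin A term was higher at 3 (1.10%, against 1.54%) and lower at 5 (1.83%, against 0.56%). The IL-4 term passed at all 273, where 5.35% of all sites tested did. The rule fixed this last count.

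Seen from the treated libraries, 604 autosomal sites were at most 0.5 in both controls and at least 2 in both LatA + IL-4 and MCSF + IL-4. Of these, 179 (29.6%) were de novo sites by the rule, and 12 were at most 0.5 in both IL-4 and DMSO + IL-4. Their median signal was 1.65 in IL-4, 1.84 in DMSO + IL-4, 2.73 in the LatA library and 3.26 in the MCSF library.

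Peaks were called by the authors in each library. Of the 293 sites, 292 were overlapped by a peak in IL-4 and 292 in DMSO + IL-4, none in Untreated and 1 in DMSO. In each of LatA + IL-4 and MCSF + IL-4 a peak lay at 269 sites (91.8%, interval 88.1 to 94.7), where 60.3% of sites in range had one in the first and 59.1% in the second. A peak was present in all 4 IL-4 libraries at 257 sites (87.7%, against 29.6% in range), and in neither LatA + IL-4 nor MCSF + IL-4 at 13 (4.44%, against 24.8%). The median fold enrichment over the local background was 8.34 in IL-4, 8.81 in DMSO + IL-4, 7.90 in the LatA library and 9.03 in the MCSF library, and over all peaks of these libraries it was 4.17, 4.29, 4.77 and 4.49.

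Peak summits, the points of highest signal, were compared between libraries. The median distance between the LatA + IL-4 and MCSF + IL-4 summits was 17 bp over the 258 sites with a peak in both, and 76.7% (71.1 to 81.8) were within 50 bp. Among the sites in range with a peak in both, the median was 25 bp and 66.3% were within 50 bp. Between IL-4 and DMSO + IL-4 the median was 21 bp over 291 de novo sites, against 40 bp in range. The median summit lay at 0.490 to 0.501 of the site's width in the 4 IL-4 libraries, which is the middle of the site.

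De novo sites had a median width near that of sites with mean reads in the same range, and were narrower than lasting open sites. Their median width was 436 bp (quartiles 366 and 547, range 201 to 1169), and together they covered 135.6 kb. All autosomal sites had a median of 271 bp, sites with mean reads in the same range 431 bp, and open sites in the same IL-4 range 813 bp. None of these sets was matched to the de novo sites on read count. Spearman's rho between width and the mean signal of IL-4 and DMSO + IL-4 was 0.31 over the 293 sites. The widest was chr10:88093429-88094597 (1169 bp), with signals of 0.383 in Untreated, 0.467 in DMSO, 2.10 in IL-4, 3.21 in DMSO + IL-4, 2.46 in the LatA library and 6.75 in the MCSF library. The next, chr4:140654521-140655356 (836 bp), had signals of 0.192, 0.233, 3.24, 2.65, 3.96 and 5.31 in the same order. Both of these wide sites were higher with MCSF than with IL-4, 3.22-fold (2.14 to 4.96) and 1.64-fold (1.13 to 2.40).

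The spacing of de novo sites was compared with that of other sets. The median gap to the nearest site of any kind was 1351 bp, against 566 bp for sites with mean reads in the same range, 554 bp for all autosomal sites and 1540 bp for the 19 sites of the exchanged limits. The nearest site open in all 4 libraries of the rule lay at a median of 13306 bp, against 18810 bp for sites with mean reads in the same range and 21313 bp for all, but 13661 bp for open sites with the same IL-4 range. They were mostly single: 272 sites had no other de novo site within 50 kb, and 21 did (7.17%, interval 4.49 to 10.7). The median distance from a de novo site to its nearest other one was 1.98 Mb, and the median gap between successive ones along a chromosome was 3.94 Mb.

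Although few in number, the neighbours were more frequent than the overall share of de novo sites. Of 6883 sites within 50 kb of a de novo site, 0.305% were de novo sites themselves, 5.56-fold the share among all autosomal sites, and of 1472 sites within 10 kb 0.815% were, 14.9-fold. For sites open in all 4 libraries, 7.59% of autosomal sites, the same measure was 1.13-fold at 50 kb and 1.43-fold at 10 kb. A set this common cannot reach folds as high as a rare one, so the sets cannot be ranked by this measure. Of these open sites 84.5% had another within 50 kb and 43.9% within 10 kb. For de novo sites these shares were 7.17% and 4.10%. The 21 sites formed 1 group of 3 and 9 pairs. In LatA + IL-4 17 of the 21 had a signal of at least 2 (81.0%, interval 58.1 to 94.6), against 71.0% of the 272 lone sites (65.2 to 76.3). In the MCSF library 20 did (95.2%, interval 76.2 to 99.9), against 76.5% (71.0 to 81.4). The medians were 4.30 and 4.93, against 2.70 and 3.49 for the lone sites.

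The group of 3 spanned 29.4 kb at chr1:140827435-140856810. Its first site had signals of 2.99 in IL-4, 2.97 in DMSO + IL-4, 3.07 in the LatA library and 5.46 in the MCSF library, and its last site 4.13, 4.09, 5.05 and 6.75. The middle site had 3.24 and 3.93 in the first 2 of these, but 0.956 in the LatA library and 2.88 in the MCSF library, the lowest treated values of the group. At chr8:68723473-68724476 the members of a pair were 71 bp apart, with signals of 4.58 and 1.71 in the LatA library and 7.06 and 4.17 in the MCSF library. At chr9:72331363-72333792 the pair had 2.94 and 4.64 in the LatA library and 2.58 and 4.63 in the MCSF library.

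The effect of IL-4 was also read at sites around the de novo sites, which were themselves left out. Among the 44 sites within 1 kb that averaged 20 normalized reads or more, 65.9% (50.1 to 79.5) were past 1.5-fold higher with IL-4 against Untreated, and 36.4% (22.4 to 52.2) with DMSO + IL-4 against DMSO. From 20 to 100 kb away these shares were 33.1% and 23.8% of 3240 sites, and beyond 1 Mb 20.1% and 16.2% of 96249. Over all sites that passed this filter the shares were 21.3% and 16.9%. Against their controls, LatA + IL-4 was past 1.5-fold higher at 38.6% of the sites within 1 kb, 43.7% from 1 to 5 kb, 41.9% from 5 to 20 kb, 39.7% from 20 to 100 kb and 30.5% beyond 1 Mb. For MCSF + IL-4 these shares were 43.2%, 46.8%, 44.3%, 38.5% and 29.3%, so neither was highest within 1 kb. All sites that passed the filter gave 31.3% and 30.3%. The ratio of LatA + IL-4 to MCSF + IL-4 differed less with distance, with medians on the log2 scale of 0.05 to 0.09 and shares higher of 13.6% to 17.7% over the distances, against 16.8% of all sites that passed the filter. Neighbouring sites share a chromosome region and can share reads at their edges, which was not tested.

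**Figure D4:**
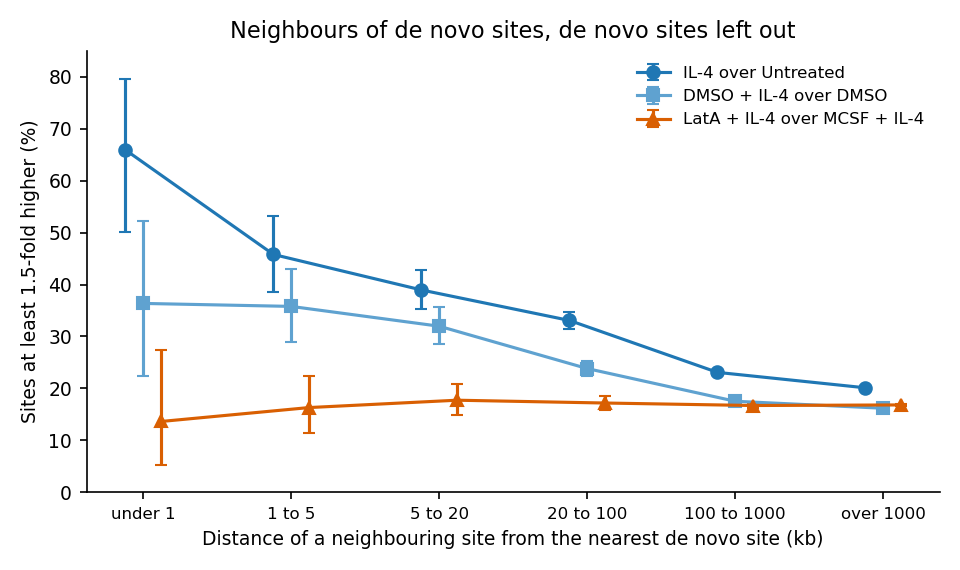
Share of sites (%, error bars exact 95% intervals) past 1.5-fold higher, by distance in kb from the nearest de novo site, for IL-4 over Untreated, DMSO + IL-4 over DMSO and LatA + IL-4 over MCSF + IL-4; de novo sites and sites with a mean under 20 normalized reads are left out. The IL-4 shares go from 65.9% and 36.4% under 1 kb to 20.1% and 16.2% beyond 1000 kb, and the LatA to MCSF share stays between 13.6% and 17.7%.

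All 19 autosomes held de novo sites. Chromosome 1 had 27 and chromosome 2 had 25, while chromosome 5 had 7 and chromosome 19 had 5. Per 1000 sites of the chromosome, the count ran from 0.213 on chromosome 5 (interval 0.0858 to 0.439) and 0.254 on chromosome 11 (0.0931 to 0.552) to 0.802 on chromosome 9 (0.490 to 1.24) and 0.891 on chromosome 16 (0.528 to 1.41), with 0.549 over all autosomes. The interval of chromosome 5 alone left out that value.

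**Figure D5:**
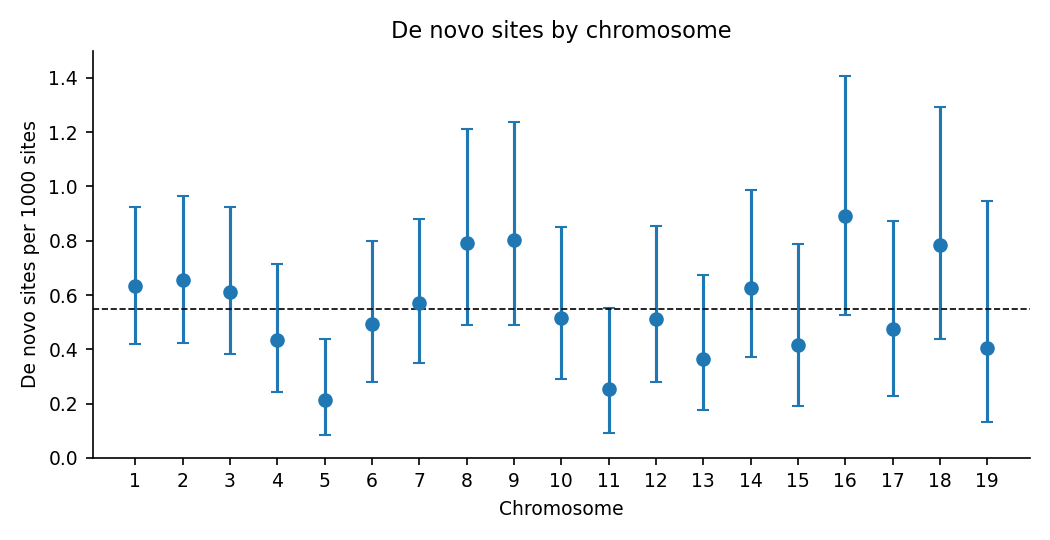
De novo sites per 1000 sites on each of chromosomes 1 to 19 (points, with exact 95% intervals as error bars) and over all of them (dashed line, 0.549). Chromosome 16 has the highest point at 0.891 and chromosome 5 the lowest at 0.213.

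The limits were sharp relative to the reads behind them. Sites that failed 1 limit alone numbered 147 for Untreated, 332 for DMSO, 792 for IL-4 and 475 for DMSO + IL-4. Just inside the Untreated limit, chr1:43925142-43925733 and chr2:65389837-65390140 had an Untreated signal of 0.479, and just outside it chr1:81161012-81161454 and chr2:16090857-16091245 had 0.527, which is 1 read more. For DMSO, chr1:10749186-10749892 and chr1:33552978-33553310 had 0.467 inside, and chr1:31161461-31161838 and chr2:35733996-35734352 had 0.525 outside. For IL-4, chr1:33951428-33951984 and chr1:175575474-175575867 had 2.03 inside, and chr1:52021518-52022046 and chr1:195231555-195232024 had 1.97 outside. For DMSO + IL-4, chr1:95588392-95588843 and chr1:175575474-175575867 had 2.00 inside, and chr1:46994490-46994858 and chr2:113531206-113531492 had 1.92 outside. These neighbours of the limits differed by 1 read, less than the counting error of each value.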

How the data were processed

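ATAC-seq was performed on 6 libraries, 1 per group. The authors trimmed reads with Cutadapt, aligned them to mm9 with Bowtie2, allowing several alignments per read, removed duplicates (Picard), blacklisted regions (bedtools) and mitochondrial reads, called peaks with macs2 on shifted and extended read ends, and counted reads per site with featureCounts; versions are not given in the sources used here. Several alignments per read add reads at repeats. The deposited signal is CPM with the authors' edgeR TMM factors. Every value is a whole multiple of 1 step per column (tolerance 0.0001), so whole reads were recovered for 100% of values. The deposited peak lists give a fold enrichment (ratio), a −log10 q-value and a summit.

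Normalized reads are recovered reads scaled to a common effective library size. A ratio (log2, 1 read added) was called past 1.5-fold. Overlap of a peak needed 1 bp. Intervals are Clopper-Pearson, or exact conditional for ratios of reads. Fits used R 4.3.3 and edgeR 4.0.16 on recovered reads, with DMSO taken as present in LatA + IL-4, and were tested on simulated data; other steps used Python 3.11.15. The members, limits and alternatives were chosen with earlier results of these data known. Sites named in the text are the 6 strongest with IL-4, the 3 highest and 3 lowest with both treatments, the 3 largest differences between them each way, the 3 largest groups (shorter span first), the 2 widest, and 2 on each side of each limit.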

Additional observations from a re-analysis of the deposited data

How the results depend on the processing

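Of the values recomputed under alternatives, 48 stayed within the interval or 1.5 times the count of the reported value and 19 moved. The 48 include the values of a setting that left out sites sharing all reads with another site. As 0 of the 293 sites did, these values could not move. With stricter limits (0.25 and 3) there were 24 sites, the median log2 ratios were -0.34 for LatA + IL-4 over DMSO + IL-4 and -0.086 for MCSF + IL-4 over IL-4, the median width was 485 bp, and 0% had another within 50 kb. With looser limits (1 and 2) there were 1112 sites, 81.9% were at least 2 with LatA and 83.6% with MCSF, the median for LatA was 0.15, and 17.7% had another within 50 kb. Among the 273 sites with enough reads (a mean of 20 normalized), 76.9% and 83.5% were at least 2; the mean includes both treated libraries and none of the 20 sites it removed reached 2 in either, so this rise was set by the limit. With IL-4 as its control, the median for LatA was 0.10. Within 10 kb 4.10% had another de novo site, and within 200 kb 17.7%. With scaling by reads outside the 281 sites of at least 1000 mean reads, an alternative chosen after seeing the data, there were 315 sites, 65.7% and 71.4% were at least 2 and the medians were -0.23 and 0.11. Total reads in sites found 293 sites, 276 shared with the 293 reported, and median-of-ratios factors 283, all shared. Peak overlap of 50% of the shorter feature left 269 sites with each treatment, and q at most 0.001 left 269 and 265. No paired analysis was possible because each group has 1 library and no number in the labels is shared between groups; the edgeR fit sets IL-4 against its control with and without DMSO, as terms and not as replicates. Left out of the choice, DMSO + IL-4 gave 768 sites and IL-4 gave 1085. Depth limits single sites: a signal of 0.5 is 6.24 to 10.4 reads. The edgeR fit was chosen after seeing the data too; at an unadjusted p under 0.05, 29 of 273 de novo sites were higher and 62 lower with LatA than with MCSF, against 6.94% and 5.06% of all 132057 tested.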

Other observations

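The 19 autosomal sites that met the exchanged limits were open in both controls and at most 0.5 in both IL-4 libraries of the rule. Their median signal was 2.68 in Untreated, 2.62 in DMSO, 0.0636 in IL-4 and 0.0802 in DMSO + IL-4, values which the limits set. With LatA + IL-4 the median was 0.956 and 5 of the 19 were at least 2, and with MCSF + IL-4 it was 0.683 and 2 were.

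Set along the vehicle in place of IL-4, the limits found 18 sites that were open in DMSO and DMSO + IL-4 and at most 0.5 in Untreated and IL-4, and 22 of the reverse kind. The X chromosome, left out of the rule, held 6 sites that met its limits among 43473, and the Y chromosome 0.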
